A study of Mus musculus with 10 samples.

Results

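The type I interferon response genes described here are 35 genes that cells are known to switch on after exposure to type I interferon. They were chosen by name from the gene symbols of the deposited table, and all 35 were found among its 56691 genes. The table holds RNA sequencing of colon tissue from 10 male C57/BL6 mice aged 8 weeks, which was sequenced to find how a treatment alters gene expression in an inflamed colon. The 5 mice of the DSS group drank 3% dextran sulfate sodium (DSS), a polymer that injures the colon lining, for 7 days. The 5 mice of the ceAF group received the same DSS and then ceAF, the early amniotic fluid of chick embryos, by gavage at 15 mL/kg for 10 days. Whether DSS mice were given a vehicle, and on which day each group was sampled, is not given in the sources used here. Neither group was free of DSS, so values of an uninjured colon are not part of the comparison. Total counts per mouse ran from 16275884 to 19901549 in the DSS group (median 16426125) and from 14676471 to 18811795 in the ceAF group (median 16058782). Tests were run on the 16545 genes with enough counts, and all 35 members were among them. The lowest member count in any mouse was 27, of Ifi27l2a in ceAF-4, so the members were counted well above the detection floor in every mouse.

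Type I interferons are cytokines that cells release when they detect foreign or misplaced nucleic acid. They bind a receptor of IFNAR1 and IFNAR2 chains, the kinases JAK1 and TYK2 phosphorylate STAT proteins, and STAT2 joins IRF9 in a complex that binds interferon-stimulated response elements in target promoters. The induced proteins block virus replication, sense further nucleic acid and feed back on the signal; in the gut, a related family, the type III or lambda interferons, induces largely the same genes in epithelial cells.

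The members differed widely between mice within each group, and the groups overlapped in all 35. DSS-5, ceAF-4 and ceAF-5 were the 3 mice with the lowest level in 35 of 35 members. The same mice were the 3 lowest in 581 of all 16545 genes tested (3.51%). The ratio of the next mouse to the highest of these 3 ran from 1 (Samd9l) to 8.3 (Ifi44), with a median of 3.11. The separation was therefore not clear in every member. ceAF-3 was the highest mouse in 27 members, ceAF-1 in 7 and ceAF-2 in 1, against 7.08%, 20.4% and 5.69% of all genes. Each gene's log2 level was centred on its mean over the 10 mice, where the level is CPM, the gene's counts scaled to the size of the library after TMM normalization, with a prior count of 1. The mean of these deviations over the members was 0.11, 0.29, 0.39, 0.73 and -1.69 in DSS-1 to DSS-5 and 1.27, 0.67, 1.69, -1.63 and -1.84 in ceAF-1 to ceAF-5. The ceAF group held both the highest and the lowest mouse, and DSS-5 lay far below the other mice of its group. These mice were picked out from the members themselves, so the counts are a description and were not tested. In bulk tissue, fewer cells of a type and less RNA per cell cannot be told apart.

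No member passed a test of the difference between the groups, the edgeR quasi-likelihood test with Benjamini-Hochberg adjustment over all genes. At an adjusted p under 0.05 the test called 0 of 35 members and 0 of all 16545 genes (0%), and the smallest adjusted p was 0.788 among members and 0.656 among all genes. At an unadjusted p under 0.05, 0 of 35 members were lower in ceAF, against 3.67% of all genes, and 0 were higher, against 3.26% of all genes. By other tools, DESeq2 called 31 genes and limma-trend on log2 FPKM called 1 or 5, depending on the pseudocount, and edgeR without DSS-5 called 3; none of these calls was a member. The smallest exact permutation p of a member was 0.341, where 5 mice against 5 allow 0.00794 (two-sided, all assignments of the mice).

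The fitted log2 fold changes of the members, ceAF against DSS, were positive in 35 of 35 members with a median of 0.44, against a median of 0.008 over all genes, and in 35 of 35 under 11 of 17 alternative settings, but not under all of them: for example, 19 or 17 members were positive on log2 FPKM with a pseudocount of 1 or 0.1, 23 without ceAF-3, 28 without ceAF-1 and 32 without DSS-5. The median was 0.090 without ceAF-3, 0.254 without DSS-5, 0.292 without ceAF-1, 0.702 without ceAF-4 and 0.690 without ceAF-5. On log2 FPKM it was 0.021 with a pseudocount of 1 and -0.009 with 0.1. The count fit compares mean levels, to which a single very high mouse contributes much, whereas a mean of logarithms weighs each mouse's ratio alike. As plain means of log2 CPM, 19 of 35 members were higher in ceAF and the median difference was 0.016.

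The precision of these comparisons was low. The standard error of the log2 fold change ran from 0.293 to 0.985 over the members (median 0.688), against a median of 0.209 over all genes. The 95% confidence interval reached a 2-fold higher level in ceAF for 34 of 35 members and a 2-fold lower level for 14, so a p that misses the threshold here does not show that the groups were alike.

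**Figure D1:**
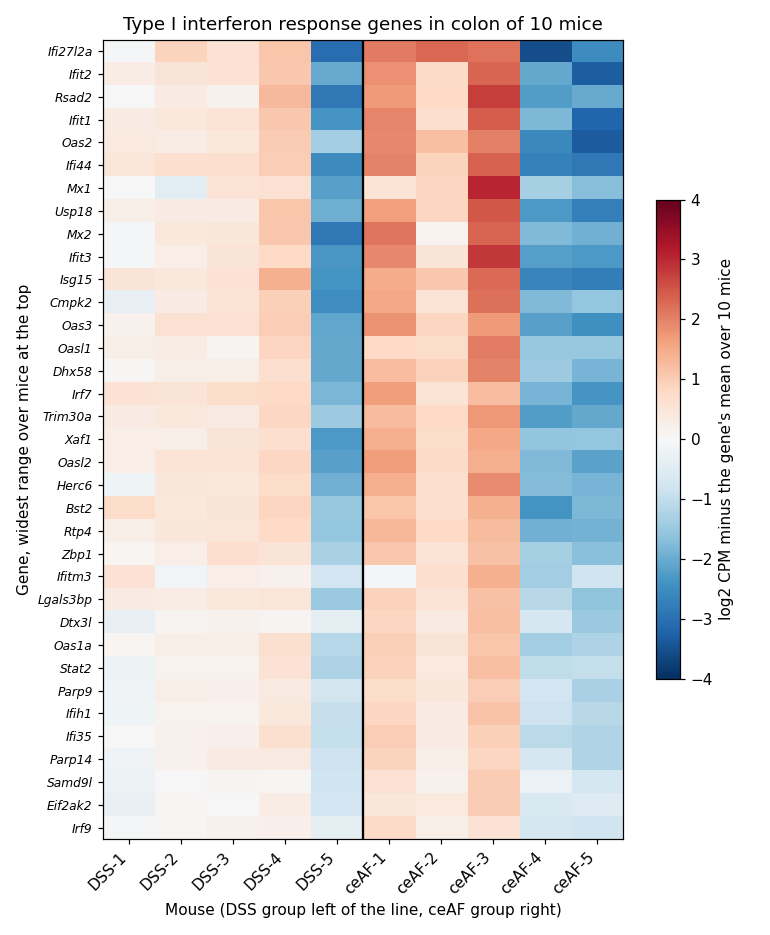
Level of each of the 35 members (vertical axis) in each of the 10 mice (horizontal axis), as log2 CPM minus the gene's mean over the mice, red for higher and blue for lower. DSS-5, ceAF-4 and ceAF-5 are the 3 lowest mice in every gene shown, and the DSS and ceAF mice overlap in all 35.

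The IFIT proteins bind foreign RNA ends and block their translation. Ifit2 stood at 418, 492, 504, 722 and 83.4 CPM in DSS-1 to DSS-5 and 1199, 580.4, 1719, 82.4 and 34.6 CPM in ceAF-1 to ceAF-5. Levels in ceAF-1 and ceAF-3 were above every DSS mouse, ceAF-5 was below every DSS mouse, and ceAF-4 was level with DSS-5. The group means were 444 ± 231 CPM in the DSS group and 723 ± 728 CPM in the ceAF group (SD, n = 5), with a log2 fold change of 0.70 ± 0.883 (SE), edgeR adjusted p = 0.919 and exact permutation p = 0.921; its direction was negative on log2 FPKM (-0.176 with a pseudocount of 1), and with 1 mouse left out it ran from 0.103 (ceAF-3) to 1.012 (ceAF-5).

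Ifit3, which forms complexes with the other IFIT proteins, stood at 45.8, 57, 68.6, 81.9 and 9.48 CPM in DSS-1 to DSS-5 and 180.4, 68.7, 339, 10.4 and 9.57 CPM in ceAF-1 to ceAF-5. DSS-5, ceAF-4 and ceAF-5 lay close together at the bottom and ceAF-3 stood highest, with ceAF-2 inside the range of the DSS mice. It had a log2 fold change of 1.21 ± 0.898 (SE), edgeR adjusted p = 0.83 and exact permutation p = 0.817, and a 95% confidence interval from -0.77 to 3.19. With 1 mouse left out the value ran from 0.362 (ceAF-3) to 1.524 (ceAF-4). Ifit1, which recognizes RNA caps that lack methylation, differed 48.5-fold between its highest mouse, ceAF-3, and its lowest, ceAF-5, and had a log2 fold change of 0.82 ± 0.893 (SE). Ifit3 has a near-identical neighbour, Ifit3b, and how the authors' counting divided reads between such copies is not given in the sources used here, so the level of Ifit3 is uncertain.

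The OAS family senses double-stranded RNA and, in its active members, makes 2'-5' oligoadenylate, which switches on RNase L. Of its 5 members here, Oasl2 had the highest mean level per length (111 FPKM, fragments scaled by exonic length and library total). Oasl2 stood at 609.9, 749, 747, 905 and 114 CPM in DSS-1 to DSS-5 and 1615, 872, 1393, 151 and 115 CPM in ceAF-1 to ceAF-5. DSS-5, ceAF-4 and ceAF-5 were several-fold below the other mice, among which ceAF-1 and ceAF-3 were highest. The group means were 625 ± 304 CPM in the DSS group and 829 ± 690.5 CPM in the ceAF group (SD, n = 5), with a log2 fold change of 0.41 ± 0.727 (SE), edgeR adjusted p = 0.948 and exact permutation p = 0.984; the sign was negative on log2 FPKM, and leaving out 1 mouse gave values from 0.011 (ceAF-1) to 0.690 (ceAF-5). The spread was widest in Oas2, 41-fold between ceAF-3 and ceAF-5, and narrowest in Oas1a, 5.66-fold, with Oas3 at 19-fold and Oasl1 at 16.9-fold. The log2 fold changes of these 4 ran from 0.22 (Oas1a) to 0.73 (Oas2). Oas1a has close copies such as Oas1g, so its counts are uncertain for the same reason as those of Ifit3.

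Among the transcription factors, Irf7 drives a further wave of interferon production, and Irf9 and Stat2 are parts of the complex that carries the receptor's signal. Irf7 stood at 476, 454, 529.9, 554 and 89.1 CPM in DSS-1 to DSS-5 and 1009, 469, 744, 87.2 and 61.4 CPM in ceAF-1 to ceAF-5. DSS-1 to DSS-4 lay within a narrow band, DSS-5, ceAF-4 and ceAF-5 lay far below it, and ceAF-1 rather than ceAF-3 was highest. The fit gave a log2 fold change of 0.17 ± 0.719 (SE), edgeR adjusted p = 0.981 and exact permutation p = 0.849, a direction that was negative without DSS-5, ceAF-1 or ceAF-3 (-0.072, -0.311 and -0.039) and on log2 FPKM. Irf9 varied least of the 35 members, 2.98-fold between ceAF-1 and ceAF-5, and Stat2 varied 5.36-fold. Irf9 shares 123 bases with Rnf31 and Irf7 shares 45 with Phrf1 in the deposited coordinates.

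The nucleic acid sensors and the kinase detect viral RNA or DNA in the cell. Dhx58 encodes LGP2, a helicase that tunes RNA sensing, and stood at 51.9, 58.4, 58.2, 78.7 and 11.9 CPM in DSS-1 to DSS-5 and 118, 94.8, 197, 18.1 and 13.8 CPM in ceAF-1 to ceAF-5. Zbp1, a sensor of Z-form nucleic acid that can start cell death, stood at 216, 245, 322, 290.3 and 83.2 CPM in DSS-1 to DSS-5 and 427, 296, 464, 81.6 and 63.9 CPM in ceAF-1 to ceAF-5. Eif2ak2 encodes PKR, the kinase that halts translation on double-stranded RNA, and stood at 85.8, 108, 105, 129.8 and 61.8 CPM in DSS-1 to DSS-5 and 143, 137, 212, 68.4 and 72.6 CPM in ceAF-1 to ceAF-5. In all 3 genes ceAF-3 was highest and the groups overlapped, and the distance between the low mice and the others was smallest in Eif2ak2. The edgeR log2 fold changes were 0.77 ± 0.688 (SE) for Dhx58, 0.21 ± 0.548 (SE) for Zbp1 and 0.37 ± 0.311 (SE) for Eif2ak2, with adjusted p of 0.867, 0.971 and 0.861. The exact permutation p were 0.73, 0.952 and 0.437, and the sign for Zbp1 was negative without ceAF-1 or ceAF-3 and on log2 FPKM. Leaving out 1 mouse gave values from 0.244 (ceAF-3) to 1.047 (ceAF-5) for Dhx58 and from 0.106 (ceAF-3) to 0.534 (ceAF-4) for Eif2ak2. Ifih1, the gene of the RNA sensor MDA5, varied 4.71-fold between mice.

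Isg15 encodes a ubiquitin-like protein that is joined to other proteins, Usp18 removes it and dampens receptor signalling, and Herc6 is the mouse ligase that attaches it. Isg15 stood at 97.1, 89.8, 100.4, 182 and 12.9 CPM in DSS-1 to DSS-5 and 188, 143, 326, 10.9 and 9.9 CPM in ceAF-1 to ceAF-5. DSS-4 was the highest of the DSS mice and lay between ceAF-2 and ceAF-1, while DSS-5, ceAF-4 and ceAF-5 were about equally low. The group means were 96.4 ± 59.9 CPM in the DSS group and 136 ± 133 CPM in the ceAF group (SD, n = 5), with a log2 fold change of 0.49 ± 0.893 (SE), edgeR adjusted p = 0.951 and exact permutation p = 0.944, negative without ceAF-3 (-0.126) and on log2 FPKM. Usp18 varied 37-fold and Herc6 14-fold between mice, with log2 fold changes of 0.83 ± 0.863 (SE) and 0.65 ± 0.706 (SE).

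The Mx genes encode dynamin-like GTPases that trap viral components. C57BL/6 mice are known to carry an Mx1 allele that gives no functional protein, so the values describe its transcript. Mx1 stood at 67.1, 48.7, 96, 101 and 14.7 CPM in DSS-1 to DSS-5 and 95.8, 120, 551, 26.4 and 20 CPM in ceAF-1 to ceAF-5. A single mouse, ceAF-3, stood far above the others, ceAF-1 and ceAF-2 were near the upper DSS mice, and DSS-5 was lowest. Mx1 had the largest log2 fold change and the smallest unadjusted p of the 35 members (0.145): it had a log2 fold change of 1.31 ± 0.838 (SE), edgeR adjusted p = 0.788 and exact permutation p = 0.627, with a 95% confidence interval from -0.53 to 3.16. Without ceAF-3 the log2 fold change was 0.007. Mx2 varied 37.3-fold, from DSS-5 to ceAF-3.

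**Figure D2:**
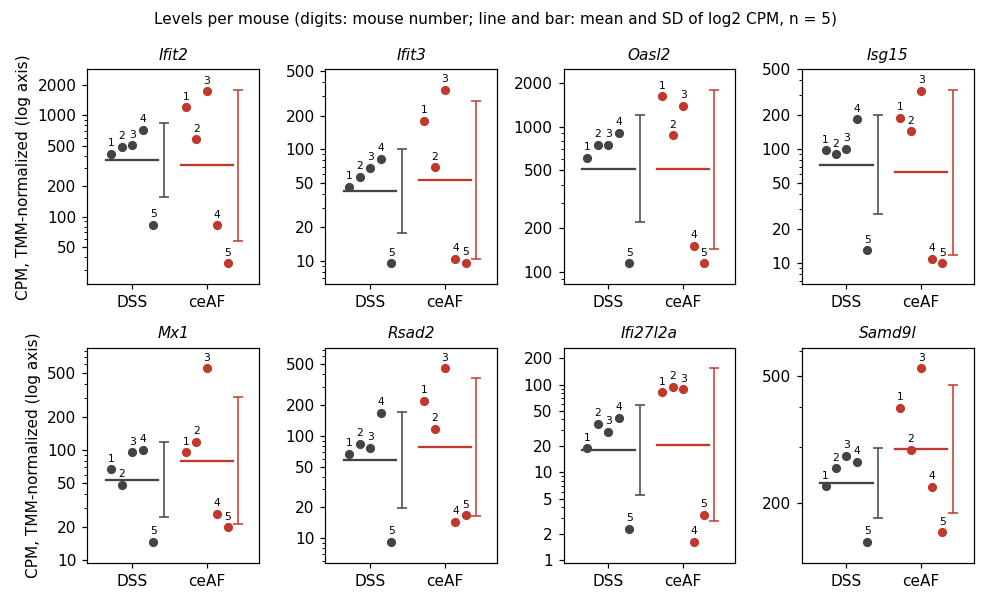
Levels of 8 members in each mouse of the DSS and ceAF groups, in TMM-normalized CPM on a log axis; points are mice with their number, and the line and bar are the mean and SD of log2 CPM (n = 5). In each gene DSS-5, ceAF-4 and ceAF-5 lie at the bottom and the groups overlap.

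Among the membrane and secreted proteins, Ifitm3 hinders the fusion of viruses with cell membranes, Bst2 (tetherin) holds budding virus at the surface, and Lgals3bp is a secreted binding partner of galectins. Lgals3bp had the highest mean level per length of all 35 members (170.4 FPKM), followed by Isg15 (160.3) and Ifitm3 (149). Lgals3bp stood at 519, 511, 547, 581 and 148 CPM in DSS-1 to DSS-5 and 776, 605, 925, 192 and 136 CPM in ceAF-1 to ceAF-5. Ifitm3 stood at 132, 81.1, 107, 99.8 and 51.7 CPM in DSS-1 to DSS-5 and 85.8, 142, 238, 33.6 and 50.4 CPM in ceAF-1 to ceAF-5. In Lgals3bp DSS-1 to DSS-4 lay close together above DSS-5, whereas in Ifitm3 the mice were spread more evenly, with DSS-1 and ceAF-2 next below ceAF-3. The edgeR log2 fold changes were 0.19 ± 0.526 (SE) and 0.22 ± 0.468 (SE), with adjusted p of 0.973 and 0.959 and exact permutation p of 0.984 and 0.905; both were negative without ceAF-3 and on log2 FPKM, and Lgals3bp also without DSS-5 (-0.020).

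Ifi27l2a, a small membrane protein gene, stood at 18.7, 35.9, 28.9, 41.6 and 2.28 CPM in DSS-1 to DSS-5 and 81.7, 94.4, 87.9, 1.61 and 3.3 CPM in ceAF-1 to ceAF-5. ceAF-1 to ceAF-3 were all above the highest DSS mouse and ceAF-4 was below the lowest, which makes its range between mice, 58.6-fold, the widest of the 35 members. It had a log2 fold change of 1.08 ± 0.985 (SE), edgeR adjusted p = 0.869 and exact permutation p = 0.937. Bst2 varied 13.9-fold and had the smallest log2 fold change of the members, 0.06 ± 0.669 (SE), and Rtp4 varied 9.46-fold.

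Rsad2 encodes viperin, which makes a chain-terminating nucleotide from CTP, and its neighbour Cmpk2 encodes a mitochondrial nucleotide kinase. Rsad2 stood at 67.1, 84, 76.7, 167 and 9.18 CPM in DSS-1 to DSS-5 and 221, 118, 457, 14.4 and 16.8 CPM in ceAF-1 to ceAF-5. DSS-5 was lowest, ceAF-4 and ceAF-5 were next, and DSS-4 lay between ceAF-2 and ceAF-1. It had a log2 fold change of 1.03 ± 0.912 (SE), edgeR adjusted p = 0.866 and exact permutation p = 0.73, and values from 0.203 (ceAF-3) to 1.482 (DSS-4) with 1 mouse left out. Cmpk2 varied 25.8-fold with the same lowest and highest mouse, DSS-5 and ceAF-3.

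Parp9 and Dtx3l form a complex that modifies histones, and Parp14 is a further ADP-ribosyltransferase. Parp9 stood at 177, 230.4, 229, 250.2 and 117 CPM in DSS-1 to DSS-5 and 331, 268, 391, 115 and 80.4 CPM in ceAF-1 to ceAF-5. DSS-5 and ceAF-4 were nearly equal, ceAF-5 was lower, and ceAF-1 and ceAF-3 were highest. It had a log2 fold change of 0.24 ± 0.4 (SE), edgeR adjusted p = 0.945 and exact permutation p = 0.913, and without ceAF-3 the value was -0.010. Dtx3l varied 6.44-fold and Parp14 4.25-fold. Parp9 and Dtx3l lie on opposite strands and overlap by 682 bases, and since it is not stated whether counting used the strand, reads of the overlap may be assigned to either gene.

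Of the 5 other induced genes, Samd9l restrains cell growth and virus replication and stood at 225, 257, 281, 269 and 151 CPM in DSS-1 to DSS-5 and 397, 293, 528, 224 and 161 CPM in ceAF-1 to ceAF-5. Here ceAF-4 was level with DSS-1, and DSS-5 and ceAF-5 were lowest. It had a log2 fold change of 0.44 ± 0.295 (SE), edgeR adjusted p = 0.801 and exact permutation p = 0.341, and with 1 mouse left out the value ran from 0.194 (ceAF-3) to 0.609 (ceAF-5); without ceAF-5 its unadjusted p was under 0.05, the single member in any setting run. Ifi44 varied 37.6-fold between mice, Trim30a 15.7-fold, Xaf1 14.4-fold and Ifi35 4.54-fold, and their log2 fold changes ran from 0.18 (Ifi35) to 0.73 (Ifi44). Trim30a has a close copy, Trim30d, and its counts are uncertain in the same way.

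Across the members, the ratio of the highest to the lowest mouse ran from 2.98 (Irf9) to 58.6 (Ifi27l2a), with a median of 14.4, and was at least 10 in 21 of 35. On the log2 scale the median range was 3.84, against 1.07 over all genes tested, of which 3.98% reached the members' median. By role, the mean deviation ran from -2.93 in ceAF-5 to 2.53 in ceAF-3 for the IFIT proteins, and from -1.32 to 1.02 in the same mice for the PARP genes and Dtx3l. The SD of log2 CPM was larger within the ceAF group than within the DSS group in 35 of 35 members (median 1.76 against 1.07), as it was in 61.8% of all genes (median 0.33 against 0.28). Together the members took 1.51% of all counts in ceAF-3 and 0.171% in ceAF-5.

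The interferons themselves were scarce. The 18 type I ligand genes listed had 14 counts in all 10 mice together, 13 of them had no count in any mouse, and 7 of the 14 counts were in ceAF-3. Ifnb1, which encodes interferon beta, had 3 counts in ceAF-3, 1 in ceAF-2 and 0 in the other mice. A count of 0 in the shallowest library, ceAF-1, allows up to 3 counts, counting error only. That is 0.204 CPM of its total count without TMM scaling. The TMM factor of ceAF-1 was 0.8944, so the limit in TMM-normalized CPM is higher. The lambda interferon genes Ifnl2 and Ifnl3, copies so alike that their counts are best read together, had 0, 19, 2, 24 and 3 counts in DSS-1 to DSS-5 and 28, 9, 53, 0 and 0 in ceAF-1 to ceAF-5. ceAF-3 and ceAF-1 had the most, ceAF-4 and ceAF-5 had none and DSS-5 had 3, but DSS-1 also had none and was not among the 3 lowest mice for any member. Both genes were below the count needed for a test.

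Ifng, the ligand of the separate type II receptor, stood at 2.26, 3.5, 3.17, 4.74 and 1.08 CPM in DSS-1 to DSS-5 and 0.839, 1.69, 0.823, 0.119 and 0.44 CPM in ceAF-1 to ceAF-5. All ceAF mice but ceAF-2 were below the lowest DSS mouse, DSS-5. Its log2 fold change was -1.92 ± 0.555 (SE), with an unadjusted p of 0.00538 and an edgeR adjusted p of 0.656, so it did not pass the test.

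Of the 6 interferon receptor genes, 0 were lower and 0 higher at an unadjusted p under 0.05 by edgeR, 0 had DSS-5, ceAF-4 and ceAF-5 as the 3 lowest mice, and the median log2 range between mice was 0.67, against 1.07 over all genes; Ifnar2 (1.83) and Ifngr2 (1.16) were above it. Ifnar1, the first chain of the type I receptor, stood at 52, 44.6, 43.5, 40.9 and 40.7 CPM in DSS-1 to DSS-5 and 49.2, 36.9, 42.7, 46.1 and 35.2 CPM in ceAF-1 to ceAF-5. ceAF-5 was lowest, while ceAF-4, also low in the members, was among the higher mice in this gene. The other chain, Ifnar2, had a log2 fold change of -0.52 ± 0.268 (SE, edgeR adjusted p = 0.739), with its highest level in DSS-1 (23.7 CPM) and its lowest in ceAF-1 (6.64 CPM).

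Among the 11 relay genes and inhibitors, 1 was lower and 0 were higher at an unadjusted p under 0.05 by edgeR, against 3.67% and 3.26% of all genes. The kinases Jak1 and Tyk2 had log2 ranges of 0.55 and 0.33.

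The gene with the low p was Socs3, an inhibitor induced mainly by STAT3, at 151, 39.6, 42.7, 48.1 and 194 CPM in DSS-1 to DSS-5 and 28.5, 35.6, 23.6, 51.2 and 24.8 CPM in ceAF-1 to ceAF-5. DSS-5 and DSS-1 stood far above the rest, and the remaining DSS mice overlapped the ceAF mice. It had a log2 fold change of -1.54 ± 0.475 (SE), an unadjusted p of 0.00789 and an edgeR adjusted p of 0.656. Leaving out DSS-5 gave a log2 fold change of -1.079. Socs1, which blocks the receptor's kinases, was lowest in ceAF-4 (1.55 CPM) and ceAF-5 (3.08 CPM), and DSS-5 had 7.14 CPM.

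Upstream sensing genes, read in the same way, were split. Of 15 measured, 0 passed in either direction at an unadjusted p under 0.05, and 5 had the members' 3 lowest mice. These were Ddx58, Tlr3, Trim25, Tbk1 and Myd88, chosen here after their values were seen. Ddx58, which encodes the RNA sensor RIG-I and is interferon-induced, stood at 65.7, 81.5, 77.9, 97.8 and 17.7 CPM in DSS-1 to DSS-5 and 146, 83.2, 206, 35.3 and 23.6 CPM in ceAF-1 to ceAF-5. Its levels in DSS-5 and ceAF-5 were the lowest and that in ceAF-3 the highest. The 3 genes with the smallest unadjusted p were Ikbke, Irf5 and Myd88, with log2 fold changes of 0.23, -0.48 and -0.19. The adaptor Mavs and the factor Irf3, also chosen after their values were seen, had their highest level in DSS-5, at 65.9 and 70.2 CPM. Tbk1, by contrast, was lowest in the members' 3 lowest mice, at 81.6 CPM in DSS-5, 90 CPM in ceAF-4 and 72.6 CPM in ceAF-5.

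A list of 47 other type I induced genes followed the same mice. Of the 46 tested, 34 had DSS-5, ceAF-4 and ceAF-5 as the 3 lowest, and the median log2 fold change was 0.28. At an unadjusted p under 0.05 by edgeR, 1 was lower and 0 were higher in ceAF, against 3.67% and 3.26% of all genes. Its 3 genes with the smallest unadjusted p were Ifitm1, Slfn9 and Ifit3b. Ifitm1 had a log2 fold change of -1.71 ± 0.614 (SE, edgeR adjusted p = 0.656) and rested on DSS-1, at 117 CPM against at most 32.1 CPM in the other mice; without DSS-1 the value was -0.816. Slfn9 and Ifit3b were highest in ceAF-3 (119 and 150.4 CPM), with adjusted p of 0.72 and 0.758; without ceAF-3 their log2 fold changes were 0.336 and 0.423, against 0.923 and 1.579 in all mice. The most abundant gene of the list was Slfn4, named after its values were seen, at 3223, 1309, 2069.5, 3483 and 465 CPM in DSS-1 to DSS-5 and 4814, 4144, 7243, 507 and 349 CPM in ceAF-1 to ceAF-5. The groups overlapped, and ceAF-3 was again highest and DSS-5, ceAF-4 and ceAF-5 lowest.

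The 22 genes listed as induced by interferon gamma shared the low mice, and which interferon induced them here was not tested. 18 of 22 had DSS-5, ceAF-4 and ceAF-5 lowest, 0 were lower and 0 higher at an unadjusted p under 0.05 by edgeR, and the median log2 fold change was -0.03. Their summed level was 1651, 2545, 2821, 3121 and 1018 CPM in DSS-1 to DSS-5 and 2937, 2929.5, 4008, 826 and 924 CPM in ceAF-1 to ceAF-5. ceAF-1, among the highest mice in the members, was level with DSS-3 and DSS-4 in this sum. The 3 with the smallest unadjusted p were Ido1, Irf8 and Ciita, with log2 fold changes of -0.60, -0.17 and -0.32.

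Cell type markers were read for the same mice. Colon epithelium markers, led by Muc2, were strongly expressed in every mouse, as the tissue label says, with a summed level of 22655, 26691, 29260.3, 30515 and 18072 CPM in DSS-1 to DSS-5 and 31902, 23759.8, 25610.4, 24417 and 20835 CPM in ceAF-1 to ceAF-5. DSS-5 had the lowest sum and ceAF-1 the highest, a difference far smaller than in the members, but the sum hides single markers, and 2 of 10, Krt20 and Car1, had the members' 3 lowest mice. Car1, named after its values were seen, stood at 1118, 4653, 7774, 4956 and 115 CPM in DSS-1 to DSS-5 and 11922, 814, 3344, 753 and 505 CPM in ceAF-1 to ceAF-5, a log2 range of 6.70, wider than that of any member (at most 5.82), with a log2 fold change of -0.10 and an edgeR adjusted p of 0.992. T cell markers, led by Cd3g, were lower in ceAF at an unadjusted p under 0.05 by edgeR in 7 of 8 genes, against 3.67% of all genes. None was at 0, and the list was chosen with earlier results of these data known. The summed level of the T cell markers was 85, 91.4, 91.8, 96.2 and 33.7 CPM in DSS-1 to DSS-5 and 31.3, 49.4, 39.3, 21.6 and 25.8 CPM in ceAF-1 to ceAF-5. DSS-5 and every ceAF mouse were below DSS-1 to DSS-4, so ceAF-1 and ceAF-3 combined low T cell markers with high members, and 1 of 8 markers had the members' 3 lowest mice. Natural killer cell markers, led by Gzma, summed to 18.7, 48.4, 51.5, 41.6 and 17.5 CPM in DSS-1 to DSS-5 and 36, 37.1, 20.9, 16.1 and 21.2 CPM in ceAF-1 to ceAF-5. DSS-5, ceAF-4 and ceAF-5 were low in this sum, but so were DSS-1 and ceAF-3. Most of the sum was Gzma; the other 4 markers summed to 5.27, 6.05, 8.02, 5.83 and 2.28 CPM in DSS-1 to DSS-5 and 4.35, 7.03, 6.31, 3.22 and 3.35 CPM in ceAF-1 to ceAF-5, lowest in DSS-5, ceAF-4 and ceAF-5, and 1 of 4 markers tested, Klrk1, had the members' 3 lowest mice. The part of these cells in the members' levels was not tested.

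Neutrophil markers, led by S100a9, summed to 1561, 15.9, 172, 18.9 and 69.2 CPM in DSS-1 to DSS-5 and 2.14, 13.5, 14.6, 44.2 and 19.8 CPM in ceAF-1 to ceAF-5. DSS-1 stood apart in this sum, while its mean member deviation, 0.11, was the lowest after those of DSS-5, ceAF-4 and ceAF-5. Of the neutrophil markers, 5 of 6 were lower in ceAF at an unadjusted p under 0.05 by edgeR, against 3.67% of all genes. Plasmacytoid dendritic cells are known as strong producers of type I interferon. Siglech, their defining marker, stood at 2.2, 0.849, 0.778, 0.833 and 0.18 CPM in DSS-1 to DSS-5 and 0.0763, 0.716, 1.04, 0.179 and 0.935 CPM in ceAF-1 to ceAF-5. It was low in DSS-5 and ceAF-4 as the members were, but also in ceAF-1, and it was not low in ceAF-5. Siglech had 135 counts in all mice together, so the order of its low mice rests on few reads. Of the list's 5 tested genes 0 were lower or higher at an unadjusted p under 0.05 by edgeR. Of the plasma cell markers 1 of 5 was lower at that limit, against 3.67% of all genes. Of the markers of B cells, natural killer cells, colon epithelium, smooth muscle, fibroblasts, endothelium, and enteric neurons and glia 0 were lower or higher at that limit. In these lists 0 markers passed at an adjusted p under 0.05 by edgeR.

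Several members are neighbours in the genome. In the deposited coordinates, whose build is not given in the sources used here, Ifit2 (chr19:34528094-34553819), Ifit3 (chr19:34560931-34566131) and Ifit1 (chr19:34618271-34627409) lie in this order on the plus strand. Rsad2 (chr12:26492745-26506451, minus strand) and Cmpk2 (chr12:26519203-26529836, plus strand) lie side by side, and Mx1 (chr16:97248235-97264107) is next to Mx2 (chr16:97336508-97362100). Oas1a, Oas2 and Oas3 lie near one another on chr5, and so do Parp14, Dtx3l and Parp9 on chr16. Isg15 lies at chr4:156283912-156285253, Samd9l at chr6:3372257-3399572 and Ifi44 at chr3:151436559-151455597. Overlap with another annotated gene was found for 15 members; in 4 of them (Irf7, Irf9, Parp9 and Dtx3l) the other gene had over 1000 counts in all mice together, and in the rest at most 197.

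Promoter sequences of RefSeq (build GRCm38.p6, not to be set against the coordinates above) were available for 25 of the 35 members, as 300 bases from 250 before to 50 after the start of the gene; Oas2, Dhx58, Zbp1, Usp18, Mx1, Mx2, Rtp4, Ifi27l2a, Parp9 and Parp14 had none in that table. They were searched for the core of the interferon-stimulated response element, GAAANNGAAA, read as TTTCNNTTTC on the other strand, and for the gamma-activated site TTCNNNGAA, which reads the same on both strands; matches to both may overlap, since they share the letters GAA and TTC. The element's core was found in 12 of 25 members (48%), against 3.99% of all 27025 genes of the promoter table. It was found in 20 of 41 other type I induced genes (48.8%) and in 8 of 14 interferon gamma induced genes (57.1%). The gamma-activated site was found in 6 of 25 members (24%), 3 of 41 other type I induced genes (7.32%), 7 of 14 interferon gamma induced genes (50%) and 9.55% of all genes. The members with the element's core were Isg15, Ifit1, Ifit3, Rsad2, Oas1a, Oas3, Stat2, Bst2, Trim30a, Ifitm3, Ifih1 and Eif2ak2. In Ifitm3, Ifih1 and Eif2ak2 it was found only after the start of the gene. The windows of Ifit2, Ifi44 and Cmpk2, which varied 49.7-fold, 37.6-fold and 25.8-fold between mice, held no match to it. A match describes the letters of the window and is not a measured binding site.

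The 80 bases around the match nearest to the start are printed for 4 of the members with both a wide range between mice and a match before the start. They show how the elements are placed. All lie before the annotated start of the gene and run 5′ to 3′ on the gene's strand, with the letters of each match in capitals. In Isg15, 3 matches overlap in 1 run, and in Ifit1 and Ifit3 2 separate matches lie on the other strand, as does the single match in Rsad2.
Isg15, chr4:156200840-156200919, minus strand: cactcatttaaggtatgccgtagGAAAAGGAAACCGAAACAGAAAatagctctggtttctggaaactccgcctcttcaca
Ifit1, chr19:34640769-34640848, plus strand: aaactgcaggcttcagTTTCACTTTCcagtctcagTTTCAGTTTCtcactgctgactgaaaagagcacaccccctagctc
Ifit3, chr19:34583372-34583451, plus strand: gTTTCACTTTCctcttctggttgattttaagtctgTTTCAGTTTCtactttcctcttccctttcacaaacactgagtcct
Rsad2, chr12:26456528-26456607, minus strand: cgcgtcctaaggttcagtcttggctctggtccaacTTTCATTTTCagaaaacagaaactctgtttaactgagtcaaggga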

How the data were processed

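RNA of the colon of 5 DSS and 5 ceAF mice was enriched by poly(A) and sequenced for the authors by a company. The submitters' processing notes list cutadapt 1.9.1 and HISAT2 2.2.1; the counter, genome build and annotation are not given in the sources used here. The deposited counts are whole reads per gene, made by the authors. The deposited FPKM are, within 0.0051, the same counts scaled by exonic length and library total.

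The edgeR 4.0.16 quasi-likelihood test (R 4.3.3) was run on the counts of the whole table with TMM normalization and filterByExpr (minimum count 10), and p-values were adjusted by Benjamini-Hochberg over the 16545 genes kept. Single members were also tested by an exact two-sided permutation of mean log2 CPM (prior count 1), adjusted over the same genes, and all adjusted values of the members were 0.914 or above. Alternatives were DESeq2 1.42.0, limma 3.58.1 on log2 FPKM, upper quartile scaling, other filters, a block for the mouse number and leaving out each mouse. Python 3.11.15 and matplotlib 3.10.9 drew the figures.

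The members and lists were chosen with earlier results of these data known. Values in every mouse are given for the 6 members with the smallest p, the 3 with the largest fold change, the 3 with the highest FPKM and the highest in each role; of the pathway lists, ligands, receptors, relay genes and the 3 with the smallest p may be named. A relay gene and a marker list are not reported here. Mouse numbers are those of the labels.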

Additional observations from a re-analysis of the deposited data

Results flagged for a closer look

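DSS-5 stood far below the 4 other DSS mice in 8 of the 15 members given in every mouse. Its gap to the next mouse, as a share of the group's range of log2 CPM, was 0.747 for Ifit2, 0.730 for Ifit3, 0.809 for Oasl2, 0.891 for Irf7, 0.778 for Dhx58, 0.733 for Isg15, 0.907 for Lgals3bp and 0.723 for Ifi27l2a, and 0.746 for the mean deviation over the 35 members. The members vary together, so these are not separate events. No ceAF mouse stood apart by the same measure, since ceAF-4 and ceAF-5 were both low. In total count, DSS-2 stood above the other DSS mice with a share of 0.908, at 19901549 counts, and its mean member deviation, 0.29, was the third highest of the 5 DSS mice. In all, 34 groups of 5 values were examined and 10 passed Dixon's limit for 5 values, where chance alone passes about 1 in 20.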

How the results depend on the processing

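The counts of genes and members past a threshold, the members' median, and the log2 fold changes of the 15 members given in every mouse and of 5 pathway genes were recomputed under 17 alternative settings; the other values were not. The count of all genes called was 0 by edgeR and 31 by DESeq2, 1 by limma on log2(FPKM + 1), 5 on log2(FPKM + 0.1), and 0 to 3 with a mouse left out; the cause was not tested. Members lower in ceAF at an unadjusted p under 0.05 numbered 0 in all 17 settings, and members higher numbered 0 except without ceAF-5 (range 0 to 1, Samd9l). The median log2 fold change of the members ran from -0.009 on log2(FPKM + 0.1) to 0.702 without ceAF-4.

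For the 15 members given in every mouse, 226 of the log2 fold changes under alternatives kept their sign, 29 did not, and none passed an adjusted p under 0.05. Negative values were, on log2(FPKM + 1), Ifit2 -0.176, Oasl2 -0.031, Irf7 -0.329, Zbp1 -0.103, Isg15 -0.234, Ifitm3 -0.077 and Lgals3bp -0.052; on log2(FPKM + 0.1), Ifit2 -0.198, Oasl2 -0.036, Irf7 -0.341, Zbp1 -0.109, Isg15 -0.249, Ifitm3 -0.080 and Lgals3bp -0.054. With a mouse left out the values ran, lowest to highest, for Irf7 -0.311 to 0.458, Zbp1 -0.084 to 0.457, Isg15 -0.126 to 0.853, Ifitm3 -0.271 to 0.464, Lgals3bp -0.103 to 0.437 and Parp9 -0.010 to 0.461. The cause was not tested. Settings for 5 pathway genes were added after seeing the data, and all 85 of those values kept their sign.

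With the mouse number as a block, 0 genes were called and the median of the members was 0.090, with 26 of 35 positive; Ifit2 -0.072, Irf7 -0.247, Zbp1 -0.055, Ifitm3 -0.042 and Lgals3bp -0.005 were negative. The numbers do not pair the mice: deviations of same-numbered mice correlated at -0.249, -0.136, -0.00428, -0.159 and 0.286, and not every mouse correlated best with its own number.

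Limits: with 5 mice a group and a spread of several-fold between them, the 95% confidence interval held a 2-fold higher level in ceAF for 34 of 35 members. Depth did not limit the members, whose lowest count was 27. Most of the interferon genes had no count, and too little depth cannot be told apart here from absent transcripts.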

Other observations

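Genes outside all lists were compared with the members by the root mean square difference, over the 10 mice, between a gene's centred log2 CPM and the mean of the members; this was done after the values were seen and is a description. Of 16146 such genes, 25 were nearer to that mean than the members' own median (0.517), against a median of 1.259 over all of them. The nearest was Rnf213 (0.215), a large ubiquitin ligase, at 324, 419, 437, 518 and 129 CPM in DSS-1 to DSS-5 and 791, 653, 1491, 147 and 103 CPM in ceAF-1 to ceAF-5. Next came Gm12250 (0.268), the MHC class I-like gene H2-T24 (0.300), the interferon-induced GTPase gene Ifi47 (0.327) and Trim30d (0.334), the close copy of the member Trim30a. In all 5 genes DSS-5, ceAF-4 and ceAF-5 were the lowest mice and ceAF-3 the highest.

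Hox genes, whose levels differ along the length of the colon, also differed between mice. Hoxb13 stood at 76.3, 95.2, 93, 112 and 206 CPM in DSS-1 to DSS-5 and 6.18, 215, 149, 10.2 and 185 CPM in ceAF-1 to ceAF-5. ceAF-1 and ceAF-4 were lowest; ceAF-1 was high and ceAF-4 low in the members. Hoxb6 stood at 1.27, 25.3, 36.6, 22.4 and 0.96 CPM in DSS-1 to DSS-5 and 91, 0.846, 17.4, 2.98 and 0.88 CPM in ceAF-1 to ceAF-5. DSS-5, ceAF-5 and ceAF-2 had the lowest levels, though ceAF-2 was not low in the members. The part of the sampled stretch of colon in the members' levels was not tested.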
